A study of Mus musculus with 9 samples.

Results

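The 10 genes described here, which epithelial cells use to call in neutrophils or switch on together with such genes, were followed across 3 oxygen levels: the granulocyte growth factors Csf3 and Csf2, the chemokines Cxcl1, Cxcl2, Cxcl3, Cxcl5 and Ccl20, the cytokine Il6, and 2 genes that are neither chemokines nor growth factors, Lcn2 and Ptgs2. They were chosen by gene symbol, with earlier results of these data known, and all 10 were found among the 26445 entries of the table. Shares of all genes given beside their counts are for scale only. The samples were a mouse corneal epithelial cell line, named iCell-0093a in the labels and given as WT (wild type). Cells were kept at 21% oxygen (the level of room air, used here as the reference), at 8% oxygen or at 1% oxygen, with 3 libraries a level and 9 in all. The sources used here do not give how long the cells stayed at each level, nor the passage or the number of clones behind the line. The series title names mitophagy and mitochondria under physiological and under pathological hypoxia as its subject.

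The cornea has no blood vessels of its own, and its epithelium takes its oxygen largely from the air. When this epithelium is hurt or infected it secretes chemokines with a glutamate-leucine-arginine motif (Cxcl1, Cxcl2, Cxcl3 and Cxcl5 in the mouse), which bind the receptor Cxcr2 on neutrophils and draw them in. G-CSF, the product of Csf3, makes the bone marrow release neutrophils and keeps them alive. These genes are classical targets of NF-kappaB and C/EBP transcription factors, and most of their mRNAs carry AU-rich stretches in the 3′ untranslated region by which decay factors shorten their life.

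Of the 10 genes, 7 had at least 1 FPKM in all 9 libraries and were tested, and Cxcl2, Cxcl3 and Ccl20 lay below 1 FPKM in every library. FPKM is a level corrected for transcript length and for the fragments mapped in each library, so it can be set side by side between genes. By mean level over the 9 libraries the order was Cxcl5, Ptgs2, Cxcl1, Csf3, Csf2, Lcn2, Il6, Cxcl3, Ccl20 and Cxcl2, which ranked 87, 192, 370, 484, 2825, 4434, 9989, 13395, 15228 and 16833 among all entries. Cxcl5 was thus among the most abundant mRNAs of these cells, while Cxcl2, a close relative, was near 0.

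At 8% against 21% oxygen, Csf3, Cxcl1 and Lcn2 fell and Ptgs2 and Cxcl5 rose, which is 3 lower and 2 higher of 7 tested; Csf2 and Il6 did not pass the test. Among all 11856 genes tested, 14.9% were called lower and 8.38% higher in that comparison, 23.3% in all. At 1% against 21% oxygen, Cxcl5 and Il6 rose and none of the 7 fell, against 1.35% higher and 2.89% lower (4.24% in all) of all genes. At 1% against 8% oxygen, Lcn2 rose and none of the 7 fell, against 0.0675% higher and 0.059% lower (0.127% in all) of all genes. Across the 3 levels together, the moderated F test called 5 of 7 (Csf3, Cxcl1, Lcn2, Cxcl5 and Il6), where it called 16.3% of all genes. The comparisons of 8% and of 1% with 21% oxygen use the same 3 reference libraries, so a low or high 21% library moves both.

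A plainer count is whether the libraries of 2 levels overlap. They did not in 6 of the 7 genes at 8% against 21% oxygen (40.9% of all genes), in 2 of 7 at 1% against 21% oxygen (28.3% of all genes) and in 6 of 7 at 1% against 8% oxygen (33.1% of all genes). The median log2 difference of the 7 genes was 0.01, 0.33 and 0.25 in these 3 comparisons, where all tested genes had medians of -0.04, -0.05 and -0.003. The near-0 median at 8% against 21% oxygen covers genes that moved in opposite directions. In RNA from whole cultures, fewer cells that express a gene and less of its RNA in each cell cannot be told apart.

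**Figure D1:**
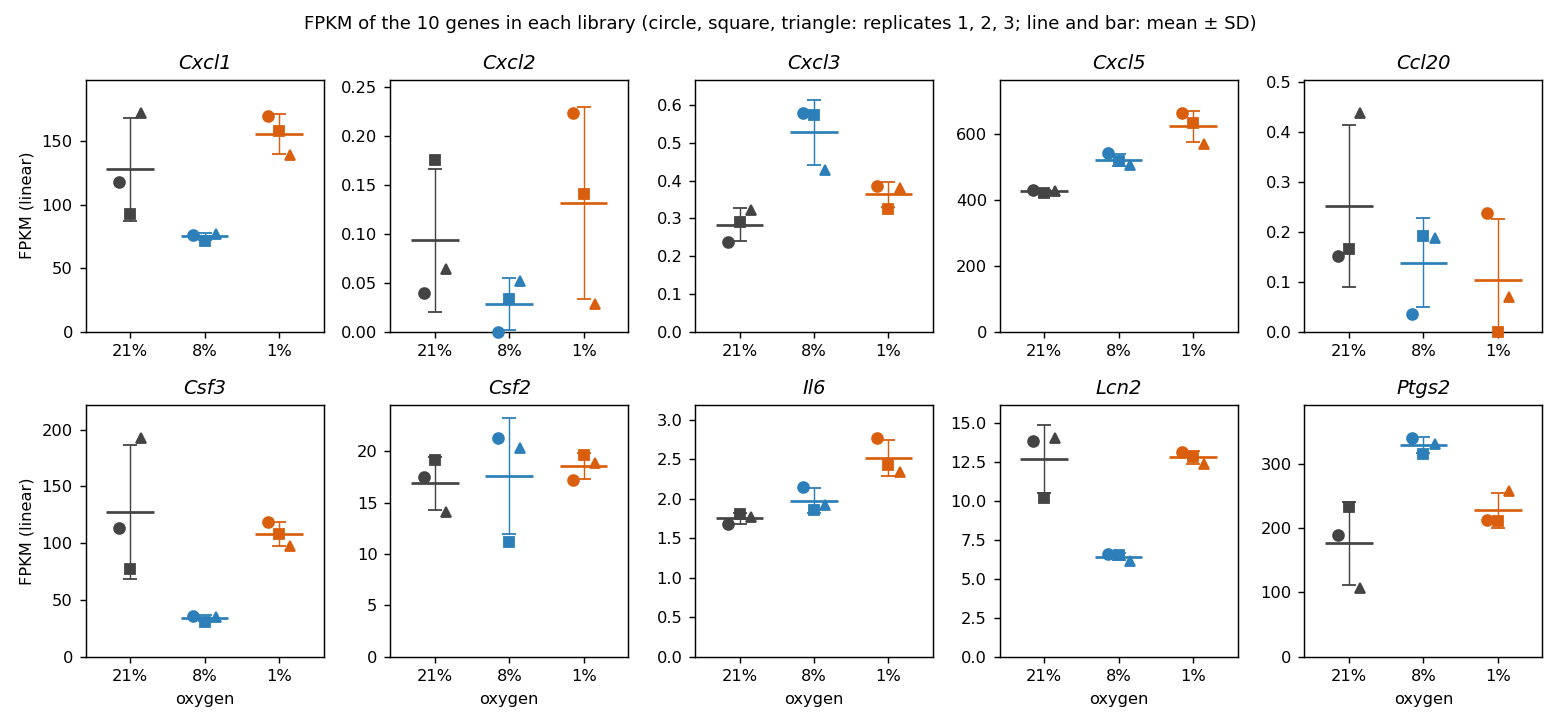
FPKM of the 10 genes in each of the 9 libraries, 1 panel a gene, with oxygen level on the horizontal axis and a linear vertical axis from 0. Symbols are libraries (circle, square and triangle for replicates 1, 2 and 3) and lines show mean ± SD (n = 3). Csf3, Cxcl1 and Lcn2 are lowest at 8% oxygen, Ptgs2 is highest there, and Cxcl5 steps up from 21% to 8% to 1% oxygen.

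The libraries themselves were alike. Their FPKM summed to between 317704 and 333178, and correlations of log2(FPKM + 1) over the tested genes ran from 0.971 to 0.986 within a level and from 0.956 to 0.981 between levels. Read depth is unknown, since the table holds no counts. The labels do not say whether the 3 libraries of a level came from separate cultures, so p-values here reflect how far these samples scatter, and that scatter may be technical. Of 12 epithelial markers 9 were tested, with summed FPKM of 1156 to 1506 at 21%, 1466 to 1486 at 8% and 1406 to 1622 at 1% oxygen; Krt8 and Epcam had means of 568 and 80.4 FPKM at 21% oxygen, but Pax6, the defining regulator of corneal epithelium, reached at most 0.0208 FPKM in any library. At 8% against 21% oxygen Dsp and Krt18 rose and Klf4 fell. Stromal markers had 4 of 11 tested, of which Vim rose at 8% oxygen, and summed to 1327 to 1758, 1695 to 1780 and 1597 to 1828 FPKM. Of 7 neutrophil markers in the table none reached 1 FPKM in 3 libraries, and their sum was 0.0771 to 0.764, 0.620 to 1.25 and 0.308 to 0.756 FPKM at 21%, 8% and 1% oxygen. Other leukocyte markers summed to 19.2 to 29.8, 42.4 to 46.7 and 32.3 to 41.6 FPKM, nearly all of it Cd68, a lysosomal protein of macrophages that other cells also make. Cd68 and Csf1r, the only 2 of 7 tested, both rose at 8% oxygen. Csf1r reached 1 FPKM only in the 8% libraries, so it passed the filter through the level where it is high. The pan-leukocyte gene Ptprc reached at most 0.0101 FPKM in any library. The part of these markers in the results below was not tested.

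Csf3 encodes granulocyte colony-stimulating factor and lies on chromosome 11 (98701263 to 98703629, plus strand). Its level was 113, 77.5 and 193 FPKM in the 3 libraries at 21% oxygen, 36.2, 30.7 and 35.2 FPKM at 8%, and 119, 108 and 97.2 FPKM at 1%. All 8% libraries lay below all the others, and the 1% libraries lay inside the wide range of the 21% libraries. The means were 128 ± 59.0, 34.0 ± 2.94 and 108 ± 10.9 FPKM (SD, n = 3), so the mean at 8% oxygen was 0.266 of that at 21%. On the log2(FPKM + 1) scale Csf3 fell by 1.78 at 8% against 21% oxygen (SE 0.275, limma adjusted p = 0.00442), among the 1772 genes that fell. The 1% level differed from 21% by -0.15 (limma adjusted p = 0.796) and from 8% by 1.64 (SE 0.275, limma adjusted p = 0.0647).

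The fall of Csf3 at 8% oxygen was called under all 18 alternative settings, with estimates from -2.09 to -1.44. The difference between 1% and 8% oxygen missed the threshold with all 9 libraries in the fit. That fit gives all levels 1 shared spread, and Csf3 scattered most at 21% oxygen, outside this comparison. The SE of this difference was 0.275 there and 0.0943 with the 6 libraries at 1% and 8% alone. It passed in 5 of 18 alternatives, among them a fit of those 6 libraries alone (adjusted p = 0.00447), without 21% replicate 3 (adjusted p = 0.00826) and without 21% replicate 2 (adjusted p = 0.0228).

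Csf2, the gene of granulocyte-macrophage colony-stimulating factor, lies on the same chromosome (54247271 to 54249667, minus strand). It had 17.5, 19.1 and 14.1 FPKM at 21% oxygen, 21.3, 11.2 and 20.4 FPKM at 8%, and 17.2, 19.6 and 18.9 FPKM at 1%. The 3 levels overlapped throughout, and replicate 2 at 8% oxygen was the lowest library. Group means were 16.9 ± 2.57, 17.6 ± 5.61 and 18.6 ± 1.26 FPKM (SD, n = 3), with log2 differences of 0.01, 0.14 and 0.12 (limma adjusted p = 0.97, 0.756 and 0.792). An antisense gene, Gm12223, overlaps Csf2, and no source used here gives the strand setting of the authors' counting; its own mean was 0.0566 FPKM.

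The ratio of Csf3 to Csf2 within a library was 6.47, 4.05 and 13.7 at 21% oxygen, 1.70, 2.75 and 1.73 at 8%, and 6.92, 5.50 and 5.14 at 1%. The 8% libraries lay below the others with no overlap. This ratio and those below pair genes chosen after seeing values, so they are no separate evidence. With 3 libraries against 3 an exact permutation test cannot go below p = 0.1, the value it gave for 8% against either other level (two-sided; 0.15 after adjustment over 9 such tests).

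Both growth factor mRNAs carry repeats of the pentamer ATTTA, the core of AU-rich decay elements, in their 3′ untranslated regions (GENCODE M21, GRCm38). Csf3 has 6 in 669 bases and Csf2 has 9 in 317 bases. Only 1.70% of 2298 genes with a 3′ untranslated region of similar length (within 20%) hold as many as Csf3, and 0% of 1726 hold as many as Csf2. The longer nonamer TTATTTATT, a stricter form of the element, occurs 4 times in Csf2 and not in Csf3. The densest 30-base stretches are printed because they show how the pentamers are packed, overlapping in Csf2 and separate in Csf3; capitals mark ATTTA, and strands are those of the genes (chr11:98702984-98703013, plus, and chr11:54247329-54247358, minus).
Csf3: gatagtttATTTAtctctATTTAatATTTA
Csf2: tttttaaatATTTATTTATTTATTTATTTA

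Cxcl1, a neutrophil chemokine of mouse epithelia, lies in a chemokine cluster on chromosome 5 (90891241 to 90893115, plus strand). It had 118, 93.1 and 173 FPKM at 21% oxygen, 76.4, 71.6 and 77.2 FPKM at 8%, and 170.5, 158 and 139 FPKM at 1%. Every 8% library lay below every other library, and the 1% libraries overlapped the 21% libraries. Means were 128 ± 40.8, 75.0 ± 3.04 and 156 ± 15.7 FPKM (SD, n = 3). Cxcl1 fell by 0.72 on the log2 scale at 8% against 21% oxygen (SE 0.193, limma adjusted p = 0.0312), a call lost in 7 of 18 alternatives, and by only 0.48 without 21% replicate 3 (adjusted p = 0.0293). At 1% oxygen it differed from 21% by 0.33 (adjusted p = 0.358) and from 8% by 1.04 (SE 0.193, adjusted p = 0.0763).

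Among the settings that ended the call of Cxcl1 at 8% against 21% oxygen were the fit with no filter (adjusted p = 0.0784), leaving out 21% replicate 1 (0.0653) or 8% replicate 1, 2 or 3 (0.0750, 0.0825 and 0.0759), and the 6 libraries alone (0.0688). The difference from 1% to 8% oxygen passed in 4 of 18 alternatives, among them with the 6 libraries alone (adjusted p = 0.00773), without 21% replicate 3 (0.0113) and without 21% replicate 2 (0.041). The difference from 1% to 21% oxygen was 0.56 and passed without 21% replicate 3 (adjusted p = 0.0348).

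Cxcl5 was the most abundant of the 10. The gene encodes the chemokine also called LIX in the mouse, and lies at the start of the same cluster (90759360 to 90761624, plus strand). Its level was 428, 420.4 and 426 FPKM at 21% oxygen, 541, 517 and 506 FPKM at 8%, and 664, 632 and 569 FPKM at 1%. The 3 levels did not overlap and rose in the order 21%, 8%, 1% oxygen. Means were 425 ± 3.83, 521 ± 18.0 and 621 ± 48.3 FPKM (SD, n = 3).

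Cxcl5 rose by 0.29 on the log2 scale at 8% oxygen (SE 0.068, limma adjusted p = 0.0186) and by 0.55 at 1% oxygen (SE 0.068, limma adjusted p = 0.00819), both against 21%. The step from 8% to 1% was 0.25 (adjusted p = 0.125). The rise at 8% was not called with no filter (adjusted p = 0.0605), without 8% replicate 1 (0.067) or after quantile normalization, where it was 0.12 (adjusted p = 0.243). The rise at 1% was not called with the 6 libraries alone (adjusted p = 0.0502).

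Cxcl2 and Cxcl3, the other chemokines of the family, were barely detected. Cxcl3 (chromosome 5, 90786103 to 90789600, plus strand) had 0.237, 0.289 and 0.324 FPKM at 21% oxygen, 0.581, 0.575 and 0.430 FPKM at 8%, and 0.386, 0.324 and 0.381 FPKM at 1%. The 8% libraries lay above all others, at levels below the filter. With no filter on low values its difference at 8% against 21% oxygen was 0.25 (adjusted p = 0.0331). Cxcl2 (chromosome 5, 90903871 to 90905938, plus strand) had 0.0392, 0.176 and 0.0644 FPKM at 21% oxygen, 0, 0.0330 and 0.0520 FPKM at 8%, and 0.224, 0.141 and 0.0286 FPKM at 1%, with all levels overlapping. Transcripts of the 2 genes share 61 windows of 50 bases, 3.37% of those in Cxcl2 and 6.31% of those in Cxcl3, so reads there could be divided between them in a way that is not known.

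The promoters of 3 genes of the cluster, Cxcl1, Cxcl2 and Cxcl3, are printed because their levels differed while all 3 hold the same NF-kappaB-type letters near the start. Cxcl1 had 71.6 FPKM or more in every library, and Cxcl2 and Cxcl3 had at most 0.581. The sequences are RefSeq promoters of the GRCm38.p6 table, from 250 bases before to 50 after the start, plus strand. Capitals mark, on either strand, an NF-kappaB-type motif (GGG, any pair of bases, then TTTCC), the C/EBP-type TTNNGCAA, the AP-1-type TGANTCA, the CRE-type core TGACGT and the HIF-type core ACGTG.
Cxcl1, chr5:90890995-90891294: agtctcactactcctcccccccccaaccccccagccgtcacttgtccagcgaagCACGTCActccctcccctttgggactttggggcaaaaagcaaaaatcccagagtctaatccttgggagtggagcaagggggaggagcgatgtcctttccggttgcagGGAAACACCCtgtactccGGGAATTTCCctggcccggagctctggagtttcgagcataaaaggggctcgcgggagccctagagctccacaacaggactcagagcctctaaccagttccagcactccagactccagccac
Cxcl2, chr5:90903649-90903948: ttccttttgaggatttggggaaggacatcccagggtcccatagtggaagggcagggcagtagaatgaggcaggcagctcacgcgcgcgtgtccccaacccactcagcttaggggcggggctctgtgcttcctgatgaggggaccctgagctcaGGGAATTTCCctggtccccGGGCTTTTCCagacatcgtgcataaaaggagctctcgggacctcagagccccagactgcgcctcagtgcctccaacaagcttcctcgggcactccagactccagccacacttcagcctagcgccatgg
Cxcl3, chr5:90785851-90786150: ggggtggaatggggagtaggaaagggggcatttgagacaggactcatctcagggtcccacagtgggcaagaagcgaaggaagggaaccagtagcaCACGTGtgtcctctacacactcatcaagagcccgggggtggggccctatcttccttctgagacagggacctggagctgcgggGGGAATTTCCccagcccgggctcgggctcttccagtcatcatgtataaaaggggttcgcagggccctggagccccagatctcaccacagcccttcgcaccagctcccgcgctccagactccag
All 3 hold GGGAATTTCC, beginning 71, 97 and 73 bases before the start in Cxcl1, Cxcl2 and Cxcl3, and Cxcl1 and Cxcl2 hold a second match 89 and 78 bases before it. Of 32851 promoters of this length 1.63% hold the NF-kappaB-type letters, and 5 of the 8 genes here with a promoter in the table do (Il6 and Ccl20 are the other two). In Cxcl1 a CRE-type core overlaps a HIF-type core, 195 and 196 bases before the start; 7.51% and 19.6% of promoters hold these letters, and 7.81% hold the AP-1-type letters, which are in none of these 3. The motif letters were chosen after the promoters had been read. A match is a description of the letters and shows no binding.

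**Figure D2:**
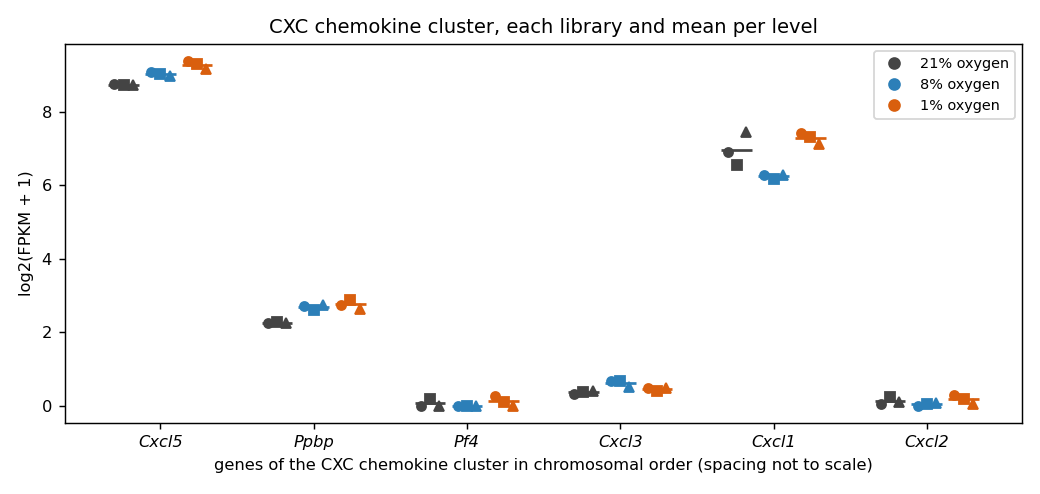
Values of log2(FPKM + 1) at the 3 oxygen levels for the genes of the chemokine cluster, in their order along the chromosome with spacing not to scale; points are libraries (circle, square and triangle for replicates 1, 2 and 3) and lines are means. Cxcl5 and Cxcl1 are far above Cxcl2, Cxcl3 and Pf4, and Cxcl5 and Ppbp are lowest at 21% oxygen while Cxcl1 is lowest at 8%.

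Between Cxcl5 and Cxcl3 lie Ppbp and Pf4, both platelet chemokine genes. Ppbp had means of 3.79 ± 0.0689, 5.41 ± 0.289 and 5.77 ± 0.604 FPKM (SD, n = 3) at 21%, 8% and 1% oxygen. It rose by 0.42 at 8% (limma adjusted p = 0.00779) and by 0.49 at 1% against 21% oxygen (adjusted p = 0.0179, a call lost in 5 of 17 alternatives). The order of its means was that of its neighbour Cxcl5 and not that of Cxcl1, but its 8% and 1% libraries overlapped. Its difference at 1% against 8% oxygen was 0.08 (limma adjusted p = 0.609). Cxcl15 also lies in the cluster and was not analysed here.

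Within each library the ratio of Cxcl1 to Cxcl5 was 0.276, 0.221 and 0.406 at 21% oxygen, 0.141, 0.138 and 0.153 at 8%, and 0.257, 0.250 and 0.245 at 1%. The 8% libraries lay below the rest, so the mix of the 2 abundant neutrophil chemokines held least Cxcl1 there. The exact permutation test gave p = 0.1 for 8% against either other level (two-sided, 0.15 after adjustment over the 9 tests), the smallest that 3 against 3 allow.

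Ccl20, which attracts lymphocytes and dendritic cells that carry the receptor Ccr6, had 0.152, 0.165 and 0.440 FPKM at 21% oxygen, 0.0355, 0.191 and 0.188 FPKM at 8%, and 0.238, 0 and 0.0692 FPKM at 1%. These values are near 0 and overlap at every level. Some receptors were near 0 in these cells: the highest library had 0.0178 FPKM of Cxcr2 and 0.0358 of Ccr6, Slc22a17, a receptor of lipocalin 2, reached 0.0114, and Csf3r was not analysed here.

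Il6, a cytokine with wide effects on inflammation and repair, was the weakest gene of the 7 tested (chromosome 5, 30013114 to 30019981, plus strand). It had 1.68, 1.81 and 1.77 FPKM at 21% oxygen, 2.15, 1.85 and 1.93 FPKM at 8%, and 2.77, 2.43 and 2.34 FPKM at 1%. The 1% libraries lay above all others and the 8% libraries above all 21% libraries. Means were 1.75 ± 0.0698, 1.98 ± 0.157 and 2.51 ± 0.227 FPKM (SD, n = 3). Il6 rose by 0.35 at 1% against 21% oxygen (SE 0.0771, limma adjusted p = 0.0456), and the differences were 0.11 at 8% against 21% (adjusted p = 0.321) and 0.24 at 1% against 8% (adjusted p = 0.161). The rise was lost in 12 of 17 alternatives, with any single library left out among them, and its adjusted p ran up to 0.140. Its receptor Il6ra and the signalling subunit Il6st had means of 2.82 and 19.9 FPKM at 21% oxygen and did not pass the test in any comparison.

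Lcn2 encodes lipocalin 2, which binds bacterial iron carriers and is stored in neutrophil granules as well as made by epithelia (chromosome 2, 32384633 to 32388252, minus strand). It had 13.8, 10.2 and 14.1 FPKM at 21% oxygen, 6.59, 6.51 and 6.18 FPKM at 8%, and 13.2, 12.8 and 12.4 FPKM at 1%. The 8% libraries were the lowest 3, and the 1% libraries lay within the 21% range. Means were 12.7 ± 2.18, 6.43 ± 0.219 and 12.8 ± 0.399 FPKM (SD, n = 3).

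Lcn2 fell by 0.87 at 8% against 21% oxygen (SE 0.109, limma adjusted p = 0.00217), called under all 18 alternatives. It rose by 0.89 at 1% against 8% oxygen (SE 0.109, limma adjusted p = 0.0404), one of 15 genes called there. That rise was lost in 9 of 18 alternatives, without 21% replicate 1 (adjusted p = 0.0794), without any one of the 8% or 1% libraries (0.0891 to 0.168) and with no filter (0.0765) among them. At 1% against 21% oxygen the difference was 0.02 (adjusted p = 0.925).

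Ptgs2, the inducible cyclooxygenase that makes the precursor of prostaglandins, ran the opposite way (chromosome 1, 150100031 to 150108227, plus strand). It had 189, 233 and 107 FPKM at 21% oxygen, 340.3, 315 and 331 FPKM at 8%, and 212, 212 and 258 FPKM at 1%. The 8% libraries lay above all others, and the 21% and 1% libraries overlapped. Means were 176 ± 64.3, 329 ± 12.6 and 227 ± 26.7 FPKM (SD, n = 3). Ptgs2 rose by 0.97 at 8% against 21% oxygen (SE 0.245, limma adjusted p = 0.0251), and by 0.64 without 21% replicate 3 (adjusted p = 0.0113). The call was lost in 6 of 18 alternatives, among them without 8% replicate 1, 2 or 3 (0.071, 0.0578 and 0.072), with no filter (0.0655) and with the 6 libraries alone (0.0612). The differences were 0.43 at 1% against 21% (adjusted p = 0.335) and -0.54 at 1% against 8% oxygen (adjusted p = 0.282); the latter passed in 3 of 18, among them with the 6 libraries alone (0.0372) and without 21% replicate 3 (0.0436).

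The promoters of these 2 genes, which moved in opposite directions at 8% oxygen, are shown in the same way; neither holds the NF-kappaB-type letters in this window, and both hold the C/EBP-type letters, as 10.8% of promoters do. In Lcn2 the match begins 216 bases before the start. In Ptgs2 it begins 69 bases before, and a CRE-type core overlaps HIF-type cores just after the start. Lcn2 is printed on the minus strand and Ptgs2 on the plus strand.
Lcn2, chr2:32387690-32387989: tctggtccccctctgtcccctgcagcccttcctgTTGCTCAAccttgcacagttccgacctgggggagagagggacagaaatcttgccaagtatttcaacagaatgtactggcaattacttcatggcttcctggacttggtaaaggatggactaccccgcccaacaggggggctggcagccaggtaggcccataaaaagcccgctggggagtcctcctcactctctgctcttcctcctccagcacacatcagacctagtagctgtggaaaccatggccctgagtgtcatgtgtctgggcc
Ptgs2, chr1:150099781-150100080: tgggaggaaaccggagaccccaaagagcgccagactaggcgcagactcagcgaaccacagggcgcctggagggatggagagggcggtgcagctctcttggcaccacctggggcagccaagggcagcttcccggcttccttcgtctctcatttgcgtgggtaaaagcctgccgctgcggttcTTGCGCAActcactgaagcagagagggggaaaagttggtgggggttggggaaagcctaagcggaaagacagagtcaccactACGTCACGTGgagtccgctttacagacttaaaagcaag

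The ratio of Ptgs2 to Lcn2 was 13.7, 22.9 and 7.59 at 21% oxygen, 51.6, 48.4 and 53.6 at 8%, and 16.1, 16.5 and 20.9 at 1%. The 8% libraries were far above the rest and close to each other. The exact permutation p was 0.1 for 8% against either other level, the smallest possible (two-sided, 0.15 after adjustment over the 9 tests).

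**Figure D3:**
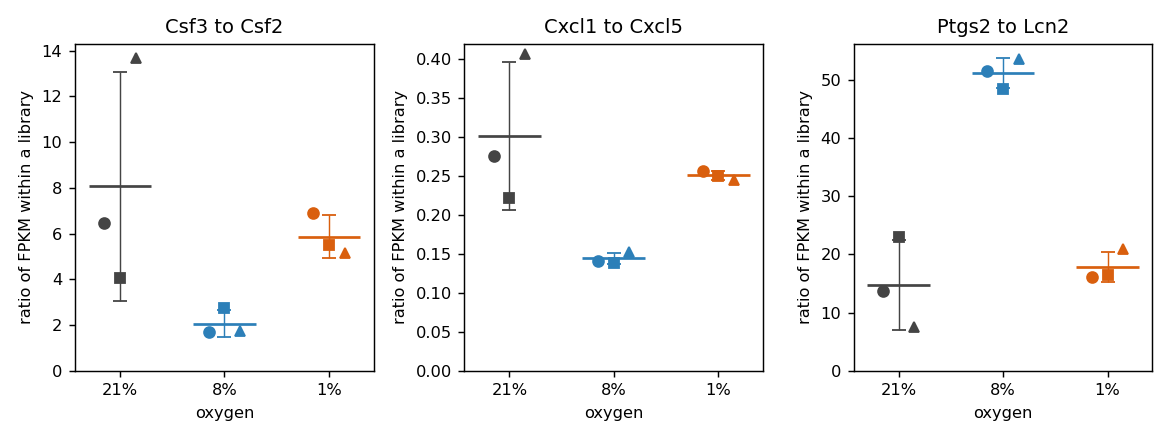
Ratios of FPKM within each library for Csf3 to Csf2, Cxcl1 to Cxcl5 and Ptgs2 to Lcn2 by oxygen level, on linear axes from 0; symbols are libraries (circle, square and triangle for replicates 1, 2 and 3) and lines show mean ± SD (n = 3). In all 3 panels the 8% libraries do not overlap those of the other levels.

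The number of pentamers differed between the genes. Cxcl1 holds 7 pentamers in 592 bases of 3′ untranslated region, where 0.469% of genes of similar length hold as many; Ptgs2 holds 14 in 2445 bases (1.57%), Il6 holds 10 in 1668 bases (2.54%) and Cxcl5 holds 5 in 1111 bases (12.9%). Lcn2 has none in 232 bases. The nonamer occurs 2 times in Cxcl1 and 1 time in Ptgs2, and not in Cxcl5, Il6 or Lcn2. The part of these elements in the differences between oxygen levels was not tested. The densest stretches of the 3 abundant genes are shown for comparison with those of Csf3 and Csf2, all on the plus strand (chr5:90892602-90892631, chr5:90760634-90760663 and chr1:150105794-150105823).
Cxcl1: gagggtcctATTTATTTAtgtATTTATTTA
Cxcl5: agcttcctgctcatctcacaagtgtATTTA
Ptgs2: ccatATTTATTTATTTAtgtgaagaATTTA

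**Figure D4:**
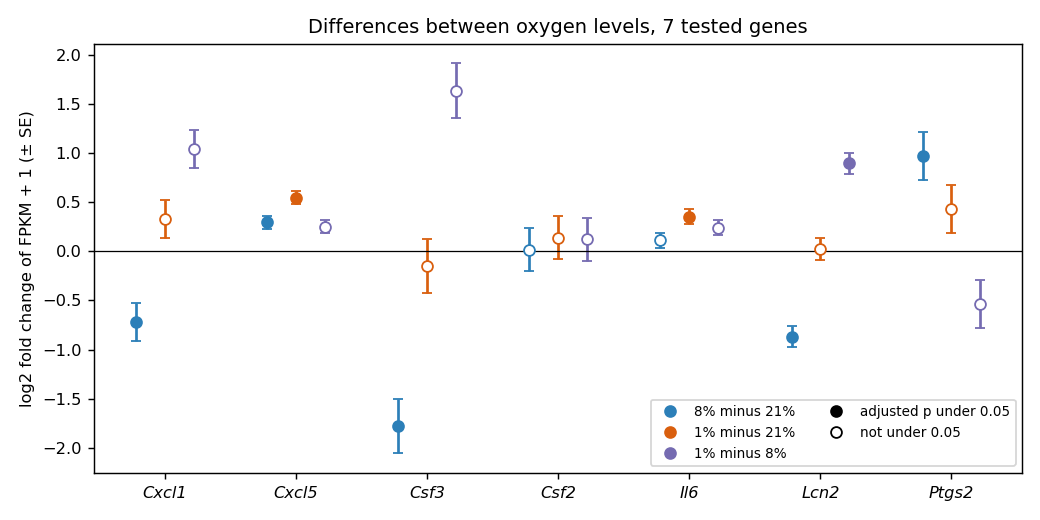
Log2 differences (limma on log2(FPKM + 1), with SE bars) of the 7 tested genes in the 3 comparisons; filled points had an adjusted p under 0.05. Csf3, Cxcl1 and Lcn2 lie below 0 and Ptgs2 and Cxcl5 above 0 at 8% against 21% oxygen.

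Csf3, Cxcl1 and Lcn2 varied together over the libraries, and Ptgs2 varied against them. Over the 9 libraries Csf3 had a Pearson correlation of 0.934 with Cxcl1, 0.972 with Lcn2 and -0.901 with Ptgs2, and after the mean of each oxygen level was removed these were 0.991, 0.812 and -0.942. At 21% oxygen Csf3, Cxcl1 and Lcn2 were all lowest in replicate 2 and highest in replicate 3, and Ptgs2 was lowest in replicate 3 and highest in replicate 2. This order was not kept at 8% oxygen, where Csf3 and Ptgs2 were both lowest in replicate 2 and highest in replicate 1. Cxcl1 was lowest there in replicate 2 and highest in replicate 3, and Lcn2 was lowest in replicate 3. At 1% oxygen Csf3, Cxcl1, Lcn2, Cxcl5 and Il6 shared another order, lowest in replicate 3 and highest in replicate 1. Ptgs2 was lowest in replicate 2 and highest in replicate 3 at that level. Over the 6 libraries at 8% and 1% oxygen alone, with level means removed, the correlations of Csf3 were 0.931 with Cxcl1, 0.449 with Lcn2 and -0.426 with Ptgs2, so those with Lcn2 and Ptgs2 were closer to 0 without the more widely spread 21% libraries. Cxcl5 and Il6 had a correlation of 0.942 with each other (0.758 with level means removed), and Cxcl5 had -0.0807 with Csf3 and 0.00107 with Lcn2. With level means removed, Cxcl5 had 0.279 with Csf3 and 0.308 with Lcn2. In the 8% and 1% libraries alone, again with level means removed, these were 0.775 and 0.884. Csf2 had -0.0101, 0.00970 and 0.00592 with Csf3, Cxcl1 and Lcn2. These are descriptions over libraries that share their oxygen levels.

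**Figure D5:**
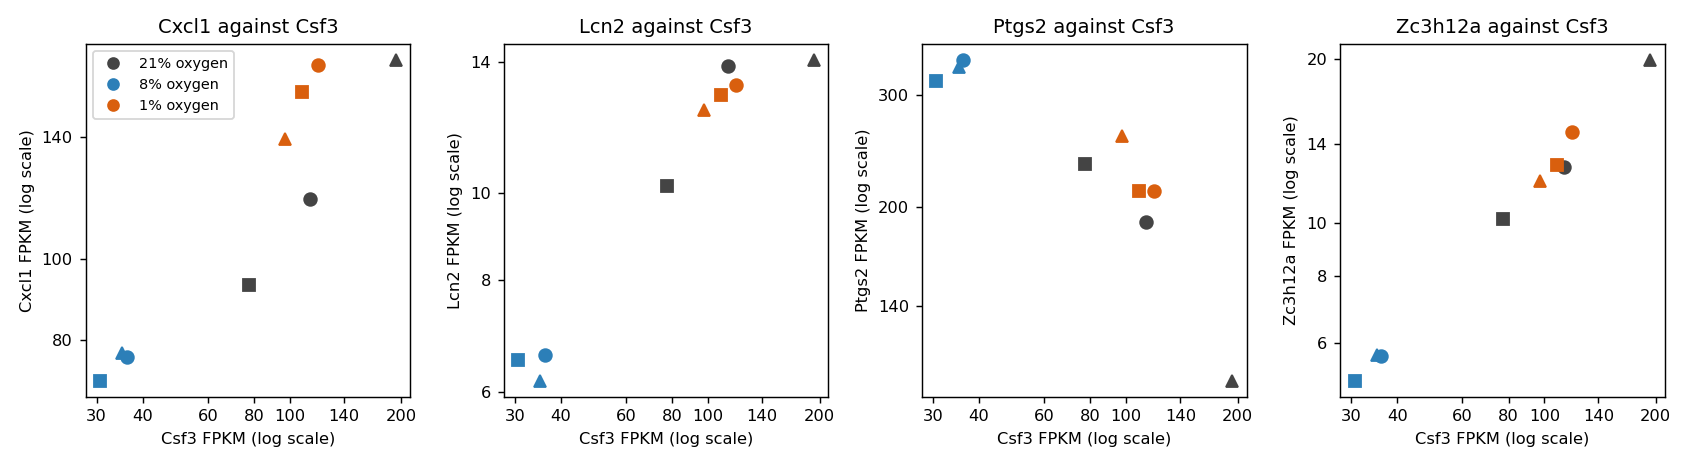
FPKM of Cxcl1, Lcn2, Ptgs2 and Zc3h12a against Csf3 in the 9 libraries, on logarithmic axes; colours are oxygen levels and symbols are replicates. Zc3h12a follows Csf3 along a line through all libraries, from 8% oxygen at the lower left to 21% replicate 3 at the upper right, and Ptgs2 slopes the other way.

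Of 7231 other genes whose mean reached 5 FPKM, 57 had a correlation of at least 0.95 with Csf3. The 5 closest were Zc3h12a (0.998), mt-Nd2 (0.989), Slpi (0.989), Mgat2 (0.987) and Eif1ax (0.982). In the 8% and 1% libraries alone, with level means removed, mt-Nd2, Slpi, Mgat2 and Eif1ax had 0.798, 0.972, 0.918 and 0.395. Zc3h12a encodes Regnase-1, an endonuclease that cuts inflammatory mRNAs in their 3′ untranslated regions. Its means were 14.3 ± 5.07, 5.50 ± 0.332 and 13.1 ± 1.41 FPKM (SD, n = 3) at 21%, 8% and 1% oxygen, and it fell by 1.18 at 8% (limma adjusted p = 0.00619). With level means removed its correlation with Csf3 was 0.989, and in the 6 libraries at 8% and 1% oxygen it was 0.952; without 21% replicate 3, and with levels kept, it was 0.997. Slpi, a secreted protease inhibitor that protects tissue from neutrophil elastase, had means of 158 ± 43.5, 80.9 ± 3.45 and 140.2 ± 8.22 FPKM.

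Genes that act with the 10 were counted by list. For scale, 8.38% of all tested genes were called higher and 14.9% lower at 8% against 21% oxygen, 23.3% in all. At 1% against 21% oxygen 4.24% were called. Counts in this and the following paragraphs are to be read beside these shares. Of 7 other chemokines tested, 2 rose at 8% against 21% oxygen (Ccl9, 0.65, and Ppbp) and 1 fell (Ccl2, a monocyte chemokine, by 0.60, a call lost in 7 of 18 alternatives), and Ccl9 and Ppbp also rose at 1%. Of chemokine receptors the scavenger Ackr3 alone was tested, and it fell by 0.36 at 8% oxygen. Of 7 haematopoietic growth factors and receptors Csf1r alone was called between 2 levels, higher by 0.68 at 8%. It passed the filter only through the 8% libraries, where it is high, so that call is not independent of the filter. Csf1, the macrophage growth factor, named here after its values were seen, passed the F test across the levels (adjusted p = 0.0321), with means of 49.2, 49.8 and 59.3 FPKM at 21%, 8% and 1% oxygen and an adjusted p of 0.0507 at 1% against 21%. Of 12 genes of the IL-6 family and its signalling, Lif and Ctf1 fell (by 0.58 and 0.52) and Tyk2 rose (0.41) at 8% oxygen. The call of Lif was lost in 11 of 18 alternatives (adjusted p up to 0.116) and that of Ctf1 in 2 of 17. None of these lists had a call at 1% against 8% oxygen.

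Around Ptgs2, 4 of 9 tested genes of prostaglandin synthesis, transport and reception fell at 8% oxygen and 1 rose. The synthase Ptges, which acts after Ptgs2, fell by 0.68 (adjusted p = 0.0160), and the transporters Slco2a1 and Abcc4 fell by 0.80 and 0.78. Ptges had means of 4.45 ± 1.29, 2.34 ± 0.148 and 4.02 ± 0.123 FPKM, so the enzyme and Ptgs2 moved in opposite directions. Cbr1, which reduces prostaglandin E, rose by 0.37, a call lost in 11 of 17 alternatives (adjusted p up to 0.144). No gene of this list was called at 1% oxygen.

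Of 12 upstream cytokines and receptors tested, Il1a, Myd88 and Il1rap fell (by 0.55, 0.57 and 0.31) and Tlr4 rose (1.42) at 8% oxygen, and Myd88 also fell at 1%. The call of Tlr4 was lost in 12 of 17 alternatives (adjusted p up to 0.127, log2 difference 1.08 to 2.06), that of Myd88 at 1% in 11 of 18 and that of Il1rap in 3 of 17. Tlr4 had 0.545, 4.72 and 0.729 FPKM in the 21% libraries and 5.22 to 6.41 at 8%, so replicate 2 at 21% stood apart from the other two. Il1b and Tnf, well known inducers of most of the 10 genes, reached at most 0.242 and 0.120 FPKM in any library. Of 22 transcription factors tested, 3 rose and 5 fell at 8% oxygen; Fosl1 and Atf3 fell by 1.32 and 1.14, Ets1 rose by 0.70, and Cebpd rose by 0.51 at 1%. Fosl1 kept its call in all 18 alternatives, and those of Atf3, Ets1 and Cebpd were lost in 10, 1 and 4 of 18. Nfkbiz, a nuclear cofactor of NF-kappaB that Lcn2 needs in other mouse cells, had means of 39.2, 38.0 and 56.3 FPKM at 21%, 8% and 1% oxygen; it passed the F test across the 3 levels (adjusted p = 0.0427) but no comparison of 2 levels (adjusted p = 0.795, 0.0770 and 0.106).

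Of 16 genes of cytokine mRNA decay and its control, 4 rose and 5 fell at 8% oxygen, and 1 rose and 3 fell at 1%. Among all tested genes 23.3% and 4.24% were called in these 2 comparisons with 21% oxygen. Mapk14, the p38 kinase that stabilises AU-rich mRNAs, fell by 1.24 and 1.20 at the 2 levels; Arid5a, which protects Il6 mRNA, fell by 0.92 and 0.89. Dusp1, a phosphatase of p38, rose by 1.38 at 8% oxygen. Zfp36 encodes tristetraprolin, which binds AU-rich stretches and starts decay, and it rose by 0.91 at 8% (adjusted p = 0.0065). Of 3 antimicrobial and acute phase genes tested, Slpi fell by 0.92 at 8%, and of the lipocalin 2 partners Mmp9, a protease whose human form binds lipocalin 2, fell by 0.62.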

How the data were processed

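The table deposited by the authors gives FPKM, a read level per transcript length and mapped fragments, of 26445 entries in 9 libraries. Per the labels, RNA was taken with TRIzol and libraries were made with a stranded, poly(A)-selecting kit. The submitters' processing notes name HISAT2 2.0.4 and StringTie 1.3.4d, with cutadapt 1.9.1 and FastQC 0.11.8, and mm10. Annotation release and strand setting: not given in the sources used here. The table holds no counts, so depth is unknown and no counting interval is given.

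Tests used limma 3.58.1 in R 4.3.3 with a mean-variance trend on log2(FPKM + 1), which understates changes of low genes. Entries reaching 1 FPKM in 3 or more of 9 libraries were kept (11856). All 9 libraries shared 1 model of 3 group means. P-values are two-sided and adjusted by Benjamini-Hochberg over all tested genes within each comparison, with calls at 0.05. The procedure was tested on simulated data. Alternatives changed the pseudocount, filter, scaling, trend, libraries and replicate block. Library weights were added after seeing the data.

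The 10 genes and the lists were chosen with earlier results of these data known. Of each list, up to 4 called genes with the largest difference are named, with regulators, receptors and partners of the 10, and the 5 genes most correlated with Csf3. The ratio pairs, the motif letters, the choice of promoters and the pentamer were chosen after seeing values and sequences. Coordinates and 3′ untranslated regions come from GENCODE M21 (GRCm38, the assembly of mm10) and promoters from RefSeq on GRCm38.p6, which matched 8 of 10 genes. Sequence and ratio work used Python 3.11.15 with SciPy 1.17.1.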

Additional observations from a re-analysis of the deposited data

How the results depend on the processing

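The falls of Csf3 and Lcn2 at 8% against 21% oxygen were called under every one of the 18 alternatives. Other calls moved with the settings. Genes called at 8% against 21%, 1% against 21% and 1% against 8% oxygen numbered 2765, 503 and 15. With 1 library left out they ranged from 1477 to 2981, from 63 to 878 and from 1 to 433, highest without 21% replicate 2 in the first and without 21% replicate 3 in the other two. They were 1606, 64 and 484 with only the 6 libraries compared, and 4994, 3064 and 1488 with a weight per library. The weights were first estimated by REML, which stopped before it converged (6273, 4628 and 1411 genes), and the gene-by-gene estimate replaced it after that result was seen. At 1% against 21% oxygen 222 genes were called with no filter and 333 after quantile normalization, and at 1% against 8% oxygen 4 with no filter and 56 with a mean of at least 5 FPKM. Rescaling moved the share of higher calls at 8% oxygen from 35.9% to 49.2% (median-ratio) or 46.6% (quantile), and at 1% against 21% from 31.8% to 53.9% or 47.7%.

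Of the 10 genes, 2 (Ptgs2 and Cxcl5) were called higher at 8% against 21% oxygen. The number was 1 after quantile normalization or with the 6 libraries, and 0 to 2 with 1 library left out. With no filter neither Ptgs2 nor Cxcl5 kept its call (limma adjusted p = 0.0655 and 0.0605). The 1 gene called higher there was Cxcl3 (limma adjusted p = 0.0331), which lay below 1 FPKM in every library. In the main fit 3 were called lower, and 2 to 3 with 1 library left out. At 1% against 21% oxygen 2 were higher, but 1 with no filter, 0 with the 6 libraries and 1 to 2 with 1 left out. With a mean of at least 5 FPKM the number was 1, but Il6 (mean 2.08 FPKM) was then not tested. At 1% against 8% oxygen 1 was higher, but 0 with no filter, 2 with a mean of at least 5 FPKM, 4 with weights, 3 with the 6 libraries and 0 to 3 with 1 left out; 1 was lower with weights or the 6 libraries, and 0 to 1 with 1 left out. The F test called 5, but 3 with no filter and 3 to 6 with 1 left out.

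With the replicate number as a block, 72 genes were called at 1% against 21% oxygen and 1 at 1% against 8%; of the 10 genes, 1, 1 and 0 were called higher in the 3 comparisons and 3 by the F test. The labels do not say whether equal numbers mark a shared culture or run. Deviations of same-numbered libraries had correlations from -0.303 to 0.095, which cannot settle it with 3 libraries a level.

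Some uncalled differences changed sign. That of Csf3 at 1% against 21% oxygen ranged from -0.45 to 0.20 with 1 library left out, and was above 0 without 21% replicate 3. That of Lcn2 there ranged from -0.12 to 0.10, below 0 without 21% replicate 2, and was -0.0564 with weights. That of Csf2 ranged from -0.14 to 0.30 at 8% against 21% oxygen, below 0 without 21% replicate 3 (-0.10), 8% replicate 1 or 8% replicate 3 (-0.11), and from -0.16 to 0.28 at 1% against 8%, below 0 without 8% replicate 2. The cause of these changes was not tested. Depth is unknown, so differences among Cxcl2, Cxcl3 and Ccl20 cannot be set against counting error.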
